A study of Mus musculus with 6 samples.

Results

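The genes described here encode the phase II conjugation enzymes of the mouse embryonic intestine: glutathione S-transferases (Gst, and the membrane-bound Mgst), UDP-glucuronosyltransferases (Ugt) and cytosolic sulfotransferases (Sult). Members were taken by gene symbol from the annotation of the array, and 49 of the 19938 genes tested fitted: 19 Gst, 3 Mgst, 11 Ugt and 16 Sult genes. Labelled RNA was measured on Affymetrix Mouse Gene ST arrays in 3 Klf5-deleted samples (genotype Klf5D/D) and 3 control samples (genotype Klf5wt/wtShhEGFP/Cre+), all of them intestine from embryos at E14.5, before villi form. Each sample was a pool of 2 intestines of mixed strain, in part C57Bl/6. The Cre recombinase of the control genotype is expressed from the Shh gene, which in the embryonic gut is active in the epithelium, and the label of the deleted genotype names no Cre. The study asked which genes change without KLF5, an epithelial zinc-finger transcription factor, ahead of villus formation.

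Conjugation enzymes attach a polar group to drugs, dietary compounds, hormones, bile pigments and reactive lipids, so that they lose activity and can be exported. Glutathione S-transferases use glutathione, UDP-glucuronosyltransferases use UDP-glucuronic acid, and sulfotransferases use the activated sulfate PAPS. In the adult the intestinal epithelium is, after the liver, a main site of these reactions, and absorptive enterocytes carry most of them.

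In the Klf5-deleted intestine conjugation enzyme genes fell more often than they rose. Of the 49 genes, 12 fell and 3 rose at a Benjamini-Hochberg adjusted p of 0.05 in limma, a linear model with moderated variances fitted over all genes, and 34 did not pass. These 15 genes are 30.6% of the members, against 17.5% of all genes tested. Over all genes 8.58% fell and 8.95% rose. The largest falls were those of the sulfotransferase gene Sult1d1, the mu-class glutathione S-transferase gene Gstm3 and the glucuronosyltransferase gene Ugt2b34. All 3 Mgst genes fell, 6 Gst genes fell and 2 rose, 1 Ugt gene fell, and 2 Sult genes fell and 1 rose. The median log2 difference (Klf5-deleted minus control) over the members was −0.04, and it was 0.02 over all genes. The 3 values of each group did not overlap for 14 members that were lower, against 15.9% of all genes, and for 4 members that were higher, against 20.1% of all genes. Most of the calls were among brighter members, as over all genes. Of the 17 members above the median level of all genes, 10 fell and 1 rose, whereas 1230 of all 9969 genes above that level fell and 1341 rose. Of the 32 members at or below it 2 fell and 2 rose, whereas 481 of all 9969 such genes fell and 444 rose.

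**Figure D1:**
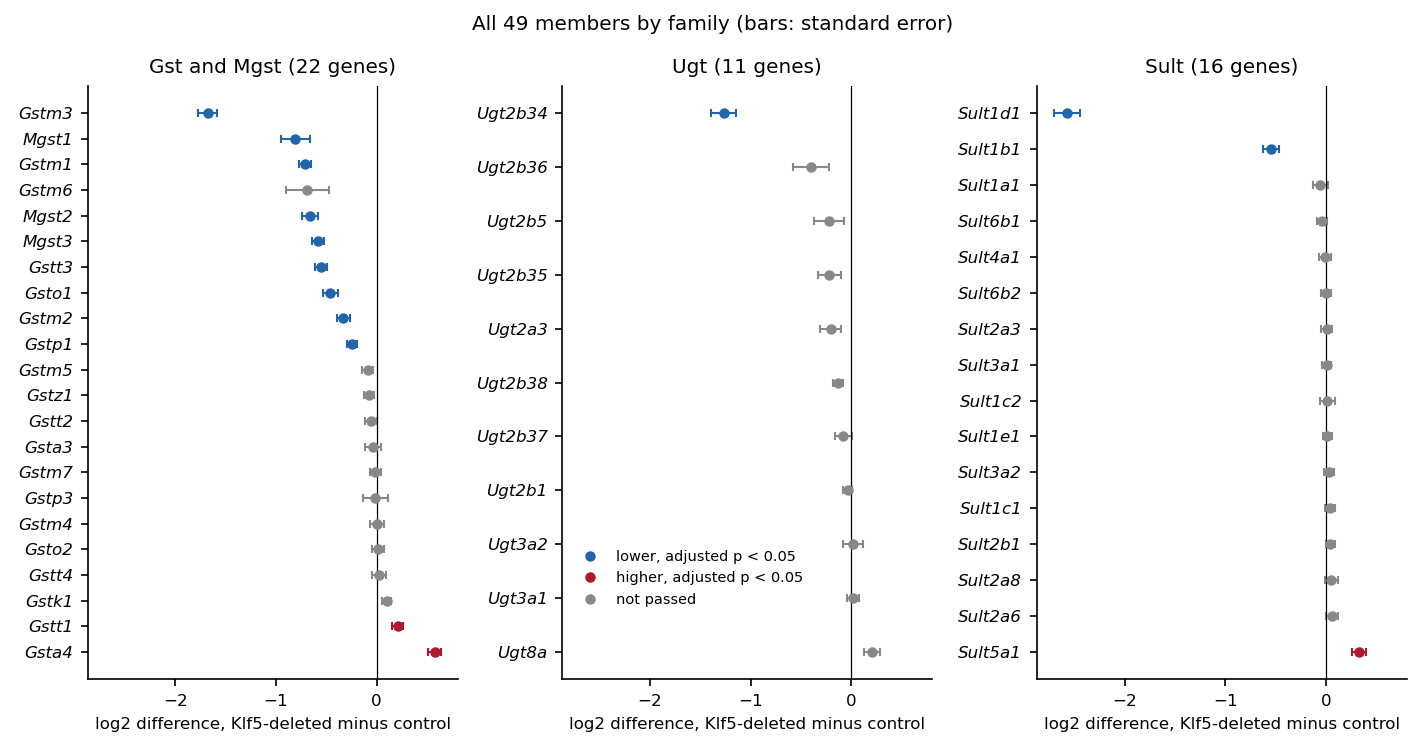
Log2 difference, Klf5-deleted minus control (x axis), for each of the 49 members (y axis) by family, with bars for the standard error; blue points fell and red points rose at an adjusted p under 0.05, and grey points did not pass. Sult1d1, Gstm3 and Ugt2b34 stand furthest below 0, and most Sult genes lie at 0.

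The arrays were alike across all rows (correlations of 0.994 to 0.997 in 6 pairs within a group and 0.989 to 0.993 in 9 pairs between groups, across rows that are not independent). Klf5 itself was 10.24, 10.49 and 10.34 in Klf5-deleted pools, against 11.55, 11.74 and 11.77 in control pools, and so fell to 39.8% of the control level (log2 difference −1.33, SE 0.08, adjusted p = 9.62e-05 in limma). Of 26 measured markers of epithelium 25 fell, with a median of −0.83, whereas 12 of the 49 members fell, with a median of −0.04. The summed linear signal of the epithelium markers was 26902 to 31471 in Klf5-deleted pools, against 54033 to 56123 in control pools. Of 14 enterocyte markers 13 fell, with a median of −1.81 and a summed signal of 6034 to 8574 in Klf5-deleted pools, against 22973 to 25883 in control pools. In whole intestine, fewer epithelial cells and less RNA per epithelial cell cannot be told apart. The part of these shifts in the members' values was not tested. Of the 21 smooth muscle and mesenchyme markers 5 rose and 0 fell at adjusted p under 0.05 in limma. At an unadjusted p under 0.05 in limma 11 passed, of which Tagln (−0.20) and Des (−0.27) were lower. Of 9 mesothelium markers 4 rose and 1 fell, with a median of 0.24, and of 6 red cell markers 2 rose, with a median of 0.38. Liver markers differed between pools. Their summed signal was 3407 to 13402 in Klf5-deleted pools, against 5275 to 8639 in control pools, and Alb was 8.47, 12.53 and 11.50 in Klf5-deleted replicates 1 to 3. The sex of the pooled embryos also moved with the groups. Xist was 5.89 to 6.47 in Klf5-deleted pools, against 11.93 to 12.61 in control pools. The male share, set to 0% at the lowest array, was 95.02% to 103% in Klf5-deleted pools, against 0%, 47.1% and 40.8% in control replicates 1 to 3. With that share as a covariate the median SE was 2.48 times as large, all 15 called members kept their sign, and 3 members passed, all of them lower: Gstm3, Mgst1 and Gstm6. That fit ended the calls of the other 13 members that had passed. The share is nearly collinear with genotype, and within the groups it varies mainly between control replicate 1 and control replicates 2 and 3. The fit therefore rests largely on control replicate 1. The part of sex in the members' values was not tested beyond it.

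**Figure D2:**
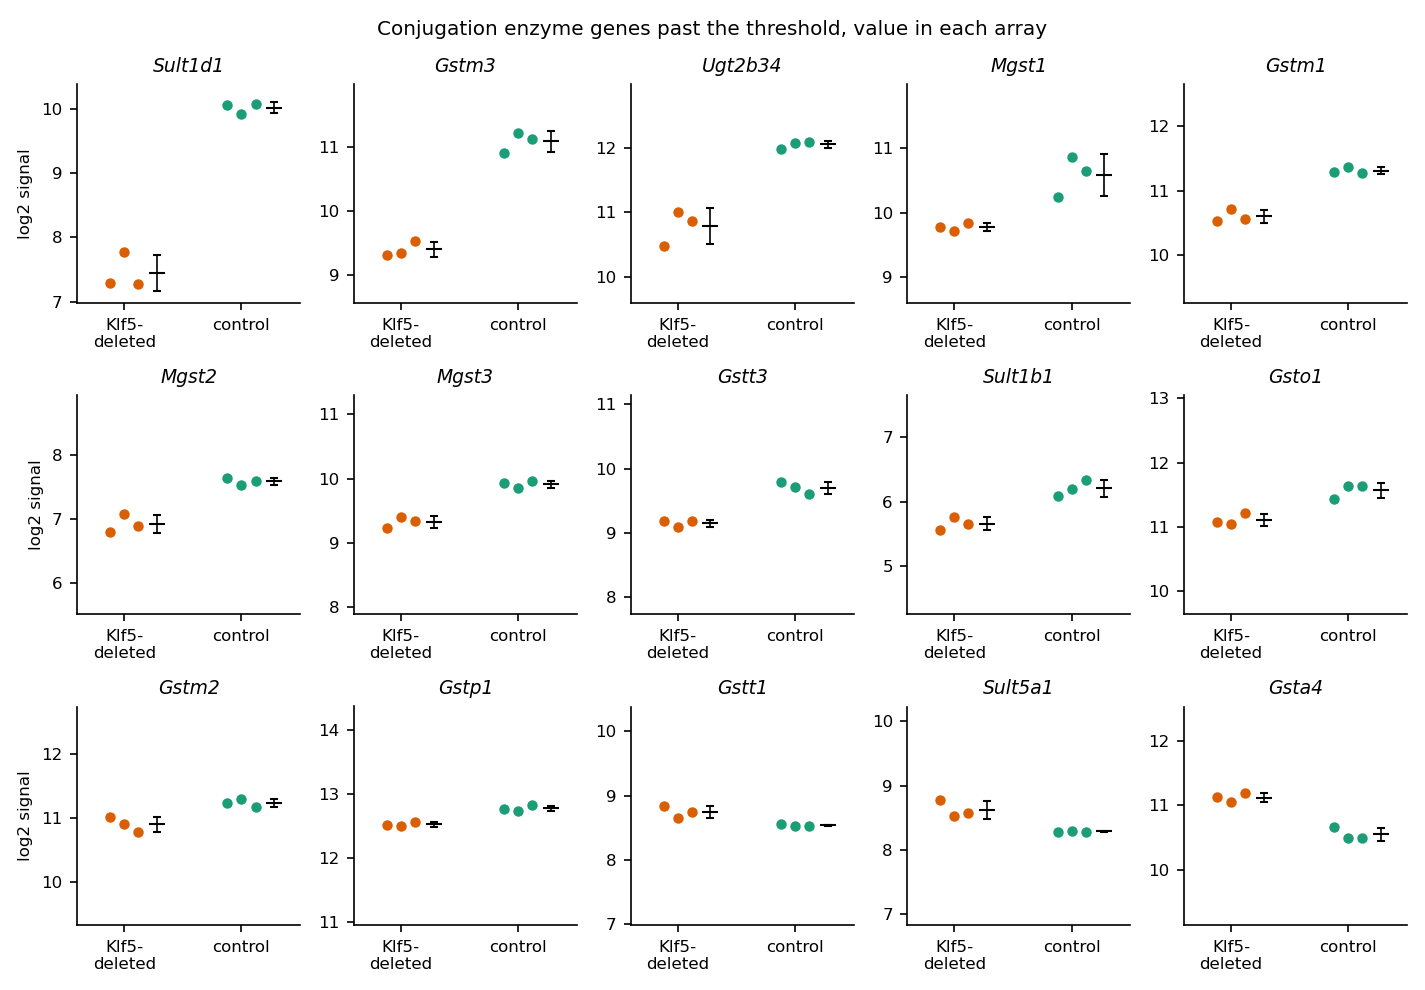
Log2 signal (y axis) of the 15 members past the threshold in each array, with the Klf5-deleted arrays on the left and the control arrays on the right of every panel; points are arrays in the order of their replicate numbers, bars give the mean and SD of 3 arrays, and each panel spans the same range of 3.4 log2 units. The groups did not overlap in any of the 15 panels.

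Sulfotransferases transfer a sulfate group to phenols, amines and steroids. Sult1d1, which in mice acts on catecholamines such as dopamine, was 7.29, 7.77 and 7.28 in Klf5-deleted pools, against 10.06, 9.92 and 10.08 in control pools (log2 signal). All 3 Klf5-deleted arrays lay more than 2 log2 units below every control array. The gene fell 5.96-fold (log2 difference −2.58, SE 0.13, n = 3 arrays a group, adjusted p = 4.21e-05 in limma), the largest change of any member. An exact two-sided permutation test over the arrays gave p = 0.1, the smallest value that 3 against 3 allows. With the male share as covariate Sult1d1 was at −2.52 (SE 0.36, adjusted p = 0.0623 in limma), and among the controls it was 10.06 in the array with 0% male share and 9.92 and 10.08 in the others. Sult1b1, which sulfates thyroid hormones and small phenols, was 5.56, 5.76 and 5.65 in Klf5-deleted pools, against 6.08, 6.19 and 6.34 in control pools. It fell by 0.54 (SE 0.08, adjusted p = 0.00414), and the groups did not overlap. It is a dim gene on this array.

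Sult5a1 was the sulfotransferase gene that rose. It was 8.78, 8.52 and 8.57 in Klf5-deleted pools, against 8.28, 8.30 and 8.28 in control pools, so that every Klf5-deleted array was above every control array (0.33, SE 0.07, adjusted p = 0.0173). Refitted in limma with control replicate 1, 2 or 3 left out, it no longer passed (0.33, 0.34 and 0.33, with adjusted p of 0.0526, 0.0574 and 0.0603). The other 13 Sult genes did not pass and lay between −0.06 and 0.06. Among them Sult4a1, a brain member of the family, was at −0.01 (SE 0.06), Sult2b1, which sulfates cholesterol, at 0.05 (SE 0.05) and Sult1a1, a phenol sulfotransferase, at −0.06 (SE 0.07). Sult1c2 was at 0.02 (SE 0.08). Their groups overlapped in every case.

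Glucuronosyltransferases sit in the membrane of the endoplasmic reticulum. Ugt2b34, a member of the UGT2B subfamily, was 10.48, 11.01 and 10.87 in Klf5-deleted pools, against 11.99, 12.08 and 12.10 in control pools. It fell 2.41-fold (log2 difference −1.27, SE 0.12, adjusted p = 6.73e-04 in limma), and the lowest control array was about 1 log2 unit above the highest Klf5-deleted array. No other Ugt gene passed. Ugt2b36 was 7.73, 8.53 and 8.06 in Klf5-deleted pools, against 8.44, 8.59 and 8.48 in control pools (−0.40, SE 0.18, adjusted p = 0.185). Among the Klf5-deleted pools it was lowest in replicate 1 and highest in replicate 2. The liver marker Alb and members such as Ugt2b34, Gstm1, Mgst2, Mgst3 and Sult1b1 took that order too. The members Mgst1, Gsto1 and Gstp1, which fell, were instead lowest in replicate 2. Epithelial markers were split. Some, such as Cdh1, Epcam, Cldn3 and Tjp3, took the order of Ugt2b36. More of that list, such as Krt8, Krt19, Spint1 and Elf3, were highest in replicate 3. Enterocyte markers were split too: Vil1, Cdhr2, Cdhr5, Alpi and others took the order of Ugt2b36, whereas Fabp2, Mttp, Lgals4 and others were highest in replicate 3. Without Klf5-deleted replicate 2 Ugt2b36 passed (−0.61, adjusted p = 0.0127 in limma). The part of liver or epithelial RNA in this order was not tested. Ugt2b35 was at −0.22 (SE 0.11), Ugt2b37 at −0.08 (SE 0.09), and the log2 difference was below 0 for all 8 measured Ugt2 genes, of which 1 passed. Ugt8a, which makes galactosylceramide of myelin rather than detoxifying, was at 0.21 (SE 0.08, adjusted p = 0.128), and it passed without Klf5-deleted replicate 1 (0.30, adjusted p = 0.0129 in limma). Both Ugt3 genes were at 0.02.

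The cytosolic glutathione S-transferases were the largest family, with the mu class its largest class. Of 7 mu-class genes 3 fell and 0 rose. Gstm3 was 9.32, 9.35 and 9.54 in Klf5-deleted pools, against 10.91, 11.22 and 11.12 in control pools, with every Klf5-deleted array more than 1 log2 unit below the controls. It fell 3.20-fold (log2 difference −1.68, SE 0.09, adjusted p = 5.54e-05 in limma), to 31.2% of the control level. A second row of the array listed for Gstm3 was at −1.97 (SE 0.25, adjusted p = 0.0093 over all rows in limma). It was 8.01, 8.96 and 8.34 in Klf5-deleted pools, against 10.18, 10.47 and 10.59 in control pools. By its number this second row lies among the rows of the mu-class genes. The brighter row, used here for Gstm3, lies among rows of members on chromosome 10. Which row reads the gene more closely was not tested. Gstm3 also passed with the male share as covariate (−2.03, SE 0.20, adjusted p = 0.0204 in limma). Gstm1, a major mu-class enzyme of mouse liver, was 10.53, 10.71 and 10.55 in Klf5-deleted pools, against 11.29, 11.37 and 11.27 in control pools (−0.71, SE 0.06, adjusted p = 3.43e-04). Gstm2 was 11.01, 10.91 and 10.78 in Klf5-deleted pools, against 11.24, 11.29 and 11.17 in control pools. It fell by 0.33 (SE 0.07, adjusted p = 0.0153), but it missed the threshold when control replicate 2 was left out (−0.30, adjusted p = 0.0616 in limma). The groups of Gstm1 and of Gstm2 did not overlap. Mu-class genes are close copies of each other and can share array probes, so the split of signal between them is uncertain.

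Gstm4, Gstm5 and Gstm7 did not pass, at 0.00 (SE 0.07), −0.09 (SE 0.06) and −0.01 (SE 0.05), and their groups overlapped. Gstm4 was 10.66, 10.69 and 10.57 in Klf5-deleted pools, against 10.52, 10.72 and 10.69 in control pools. Gstm6, which is named after its values were seen, was 6.37, 6.41 and 6.46 in Klf5-deleted pools, against 6.56, 7.53 and 7.22 in control pools (−0.69, SE 0.21, adjusted p = 0.0672). Control replicate 1, the array with 0% male share, lay nearest to the Klf5-deleted arrays. Without it Gstm6 passed (−0.96, adjusted p = 0.00251 in limma), and with the male share as covariate it was at −1.97 (SE 0.21, adjusted p = 0.0273).

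In 3 rows of neighbouring genes, members that passed stood beside members that did not. RefSeq places the 7 mu-class genes in a row on chromosome 3 in the order Gstm5, Gstm7, Gstm6, Gstm3, Gstm2, Gstm1 and Gstm4, so that the 3 genes that fell adjoin one another. Gstm6 on one side, at −0.69, and Gstm4 on the other, at 0.00, did not pass, and Gstm6 passed under some alternatives given above. On chromosome 5 the 8 Ugt2 genes precede Sult1b1, Sult1d1 and Sult1e1. There the first gene, Ugt2b34, fell, the 7 Ugt2 genes after it did not pass, and both Sult1b1 and Sult1d1 fell. Sult1e1, the estrogen sulfotransferase gene at the end of the row, was at 0.02 (SE 0.05). On chromosome 10 the theta-class neighbours Gstt3 and Gstt1 moved in opposite directions. These differences between neighbours are descriptions, and no test was made between genes.

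**Figure D3:**
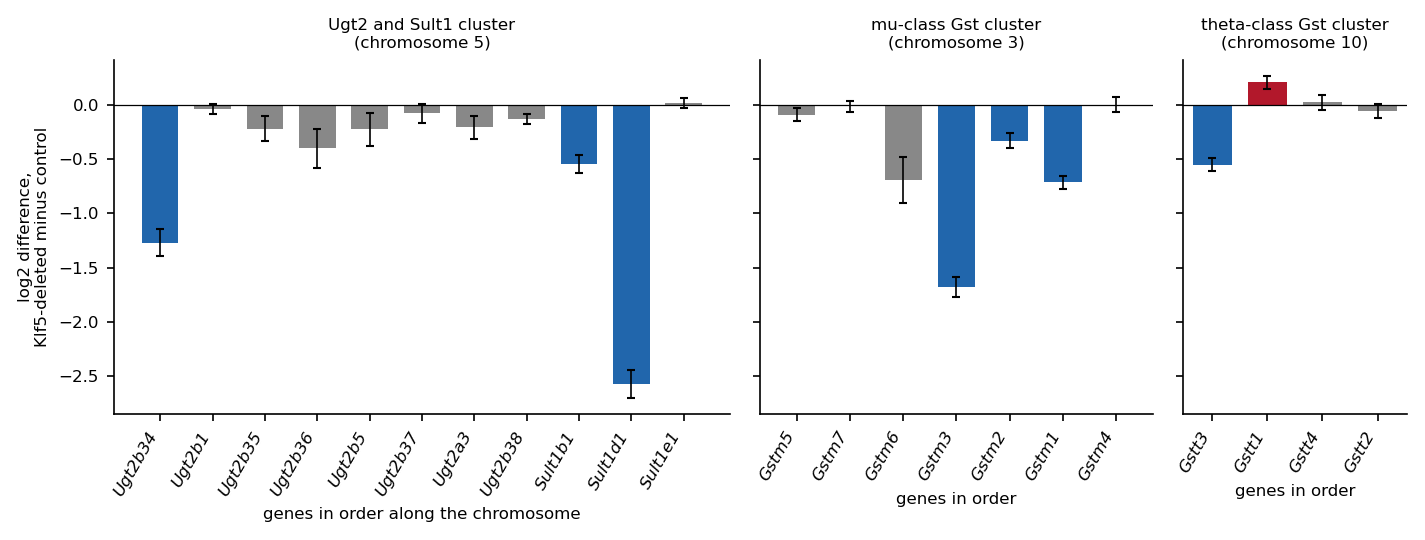
Log2 difference, Klf5-deleted minus control (y axis), for members of 3 gene clusters in their order along the chromosome (x axis, not to distance), with bars for the standard error; blue fell, red rose and grey did not pass. Sult1d1 and Ugt2b34 stand apart from the genes between them, and Gstm3, Gstm2 and Gstm1 lie side by side.

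Promoter windows are printed here for the 3 genes with the largest falls and for mu-class neighbours of Gstm3. The mu-class genes lie close together and yet have unlike values. Each window runs from 250 bases before to 50 bases after a transcription start of RefSeq (GRCm38.p6), 5′ to 3′ on the gene's strand. The first window listed was used where a gene has several, as Gstm1 and Gstm4 do. Capitals mark CACCC or its reverse complement GGGTG, letters that KLF-family factors bind, and the GC box GGGCGG or CCGCCC, which Sp and KLF factors bind. The 3 genes with the largest falls are at chr5:87568957-87569256 (Sult1d1), chr5:86906888-86907187 (Ugt2b34) and chr3:107969125-107969424 (Gstm3), each on the minus strand.
Sult1d1: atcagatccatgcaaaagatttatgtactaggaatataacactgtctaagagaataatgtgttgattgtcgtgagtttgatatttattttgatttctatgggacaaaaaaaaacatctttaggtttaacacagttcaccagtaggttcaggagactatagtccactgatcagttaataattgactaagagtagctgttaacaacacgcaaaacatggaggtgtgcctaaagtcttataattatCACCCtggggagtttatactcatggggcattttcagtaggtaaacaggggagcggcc
Ugt2b34: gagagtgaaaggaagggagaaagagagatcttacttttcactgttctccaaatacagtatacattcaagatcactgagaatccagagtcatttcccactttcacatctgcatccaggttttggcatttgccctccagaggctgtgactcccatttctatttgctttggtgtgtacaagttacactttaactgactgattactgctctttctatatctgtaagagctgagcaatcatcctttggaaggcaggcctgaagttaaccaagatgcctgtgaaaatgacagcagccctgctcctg
Gstm3: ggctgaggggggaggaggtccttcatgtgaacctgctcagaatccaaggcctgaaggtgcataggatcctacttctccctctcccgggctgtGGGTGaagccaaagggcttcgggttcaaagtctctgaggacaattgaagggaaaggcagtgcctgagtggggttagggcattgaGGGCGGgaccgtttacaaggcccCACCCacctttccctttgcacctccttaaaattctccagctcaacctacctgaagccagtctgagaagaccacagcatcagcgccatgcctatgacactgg

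The mu-class neighbours, also on the minus strand, are at chr3:108017924-108018223 (Gstm1, which fell), chr3:107986371-107986670 (Gstm2, which fell) and chr3:108044810-108045109 (Gstm4, which did not pass).
Gstm1: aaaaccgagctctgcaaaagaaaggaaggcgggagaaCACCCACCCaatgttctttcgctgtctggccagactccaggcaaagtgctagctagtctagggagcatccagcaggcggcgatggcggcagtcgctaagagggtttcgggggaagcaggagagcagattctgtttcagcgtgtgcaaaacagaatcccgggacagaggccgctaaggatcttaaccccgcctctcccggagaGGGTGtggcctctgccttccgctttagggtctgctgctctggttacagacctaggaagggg
Gstm2: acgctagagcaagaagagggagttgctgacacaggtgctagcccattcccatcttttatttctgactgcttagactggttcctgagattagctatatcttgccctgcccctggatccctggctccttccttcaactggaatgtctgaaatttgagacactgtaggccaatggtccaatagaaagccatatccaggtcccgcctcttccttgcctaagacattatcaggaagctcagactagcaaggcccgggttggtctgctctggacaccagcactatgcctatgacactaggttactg
Gstm4: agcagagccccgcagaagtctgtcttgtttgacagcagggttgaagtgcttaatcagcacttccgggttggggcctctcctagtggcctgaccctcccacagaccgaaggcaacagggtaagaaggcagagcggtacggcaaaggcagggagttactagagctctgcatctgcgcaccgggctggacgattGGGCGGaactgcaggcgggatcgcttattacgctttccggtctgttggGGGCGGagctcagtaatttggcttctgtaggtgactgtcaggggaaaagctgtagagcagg

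The Sult1d1 window held 1 CACCC match, that of Gstm3 held 2 and that of Gstm1 held 3, of which 2 overlap by a base, whereas the windows of Ugt2b34, Gstm2 and Gstm4 held 0. Gstm3 had 1 GC box and Gstm4 had 2, and Sult1d1, Ugt2b34, Gstm1 and Gstm2 had 0. A window was matched for 45 of the 49 members, with no window for Gsta4, Gstt2, Sult4a1 and Ugt3a2. CACCC was in 8 of the 12 windows of members that fell and in 10 of the 31 of members that did not pass, and in 1 of the 2 windows of members that rose, and 56.7% of all 27025 windows held it. The GC box was in 5 of 12 and 8 of 31 windows, against 35.9% of all. The core TGACNNNGC of the antioxidant response element, which NRF2 binds, was in 1 of 12 and 2 of 31, against 12.5% of all. GCGTG, the core of the xenobiotic response element of AHR, was in 4 of 12 and 4 of 31, against 32.5%. The letters GTTAAT of HNF1 factors were in 1 of 12 windows, that of Sult1d1, and in 7 of 31, against 7.20%. The letters TTTATG of a CDX site were in 2 of 12, those of Sult1d1 and Mgst1, and in 2 of 31, against 12.1%. All counts are over both strands, and a match in a window is not evidence of binding.

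Among the other glutathione S-transferases, Gstt3, a theta-class gene, was 9.18, 9.09 and 9.19 in Klf5-deleted pools, against 9.79, 9.71 and 9.61 in control pools. It fell by 0.55 (SE 0.06, adjusted p = 0.00106), and the groups did not overlap. Its neighbour Gstt1 was 8.84, 8.65 and 8.75 in Klf5-deleted pools, against 8.55, 8.53 and 8.53 in control pools (0.21, SE 0.06, adjusted p = 0.0467). Gstt1 passed in 1 of the 6 limma fits that leave out an array, the one without Klf5-deleted replicate 2 (0.26, adjusted p = 0.0245). Without Klf5-deleted replicate 1 or 3 it was at 0.16 and 0.21 (adjusted p of 0.104 and 0.121), and without control replicate 1, 2 or 3 at 0.22, 0.20 and 0.21 (adjusted p of 0.0952, 0.132 and 0.122). Its call was also lost with the replicate block (adjusted p = 0.0951), with quantile normalization (0.20, adjusted p = 0.0572) and with centring on the array median (0.19, adjusted p = 0.0987).

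Gsto1, an omega-class enzyme that reduces dehydroascorbate, was 11.07, 11.05 and 11.22 in Klf5-deleted pools, against 11.44, 11.64 and 11.63 in control pools (−0.46, SE 0.07, adjusted p = 0.00584). Gsto2, the other omega-class gene, was at 0.01 (SE 0.06). With the male share as covariate Gsto1 was at −0.72 (SE 0.17, adjusted p = 0.166). Gstp1, the pi-class enzyme that also restrains stress kinase signalling, was 12.51, 12.50 and 12.57 in Klf5-deleted pools, against 12.76, 12.74 and 12.82 in control pools. It fell by 0.25 (SE 0.05, adjusted p = 0.0109), the smallest of the 12 falls, with groups that did not overlap. Gstp2 is a close copy of Gstp1 and can share its probes.

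Gsta4, the alpha-class enzyme that conjugates hydroxynonenal from lipid peroxidation, had the largest rise among the members. It was 11.13, 11.05 and 11.19 in Klf5-deleted pools, against 10.66, 10.50 and 10.49 in control pools, so that the lowest Klf5-deleted array was above the highest control. It rose 1.49-fold (log2 difference 0.58, SE 0.06, adjusted p = 0.00120 in limma), and passed on leaving out any 1 of the 6 arrays (0.54 to 0.63, adjusted p = 0.00204 to 0.00846). Gsta3, the other alpha-class member measured on its own, was at −0.04 (SE 0.08). Gstk1, which works in mitochondria and peroxisomes, was at 0.10 (SE 0.05, adjusted p = 0.209), with every Klf5-deleted array above the controls. Gstz1, an isomerase of tyrosine breakdown, was at −0.07 (SE 0.05) and is named after its values were seen. In all, 11 of the 19 Gst genes did not pass, with differences from −0.69 to 0.10.

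The membrane-bound Mgst genes, which are unrelated in sequence to the cytosolic enzymes, fell together. Mgst1, which guards the endoplasmic reticulum and the outer mitochondrial membrane against lipid peroxides, was 9.77, 9.72 and 9.84 in Klf5-deleted pools, against 10.24, 10.87 and 10.65 in control pools. It fell by 0.81 (SE 0.14, adjusted p = 0.00874), and control replicate 1 was the control nearest to the Klf5-deleted arrays. Mgst1 also passed with the male share as covariate, where it was at −1.63 (SE 0.19, adjusted p = 0.0330 in limma). Mgst2, which can make leukotriene C4, was 6.80, 7.08 and 6.89 in Klf5-deleted pools, against 7.64, 7.52 and 7.59 in control pools (−0.66, SE 0.08, adjusted p = 0.00138). Mgst3, a related glutathione transferase and peroxidase, was 9.23, 9.40 and 9.35 in Klf5-deleted pools, against 9.93, 9.85 and 9.96 in control pools (−0.59, SE 0.06, adjusted p = 8.05e-04). The groups overlapped for none of the 3, and each passed on leaving out any 1 array (adjusted p at most 0.0399 for Mgst1, 0.00981 for Mgst2 and 0.0062 for Mgst3).

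Another 12 rows of the array list several symbols of which at least 1 fits the rule, and they are given without naming a gene. Tested over all 35557 rows, 7 of the 12 fell and 0 rose at adjusted p under 0.05 in limma, whereas 3.82% of all rows fell (at an unadjusted p under 0.05, 7 of the 12 were lower and 2 higher). The 4 rows that list alpha-class Gsta symbols all list the same symbols. They lay between −0.74 and −0.30 and all fell, whereas Gsta4 rose. The row shared by 8 symbols of the Ugt1a locus was 6.87, 6.98 and 6.93 in Klf5-deleted pools, against 7.42, 7.66 and 7.36 in control pools (−0.55, SE 0.09, adjusted p = 0.0183). The 2 rows shared by pi-class symbols, which also list the same symbols, fell by 0.39 and 0.40. The 7 rows that fell are therefore not 7 separate results. The rows shared by Ugt2a, Ugt3a and Sult2a symbols did not pass and lay between −0.04 and 0.16.

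Against the epithelium list, 3 members fell by more than its median of −0.83: Sult1d1, Gstm3 and Ugt2b34. The other 9 falls lay between that median and 0. Against the enterocyte list, with its median of −1.81, Sult1d1 was lower, whereas Gstm3 at −1.68 and Ugt2b34 at −1.27 were not. These comparisons have no test. Cdh1, the epithelial cadherin, was 10.77, 11.18 and 11.04 in Klf5-deleted pools, against 11.93, 11.91 and 11.97 in control pools (−0.94, SE 0.10, adjusted p = 8.70e-04). Epcam, an epithelial surface protein, was at −0.61 (SE 0.075, adjusted p = 0.00187).

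Genes of the cofactor lists, chosen with earlier results of these data known, moved unevenly. Besides supply genes the glutathione list holds peroxidase genes, which use glutathione, and genes of its breakdown. Of the 23 measured genes of this list 9 fell and 1 rose, with a median of −0.18. The gene that rose was the peroxidase gene Gpx8 (0.18, SE 0.05), named after its values were seen. Glutathione synthetase, Gss, fell by 0.64 (SE 0.05, adjusted p = 2.41e-04) and glutathione reductase, Gsr, by 0.54 (SE 0.13, adjusted p = 0.0261). The glutathione peroxidase gene Gpx2, known from gut epithelium, was 7.06, 7.63 and 7.62 in Klf5-deleted pools, against 9.36, 10.52 and 9.36 in control pools (−2.31, SE 0.32, adjusted p = 0.00308), and the plasma peroxidase gene Gpx3 fell by 0.32 (SE 0.075). The glutamate-cysteine ligase subunit genes Gclc and Gclm, named after their values were seen, did not pass, at −0.19 and 0.15.

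For glucuronidation, 3 of 9 listed genes fell and 0 rose, with a median of −0.08. Pgm1, a phosphoglucomutase, fell by 0.78 (SE 0.05, adjusted p = 6.86e-05) and the nucleotide sugar transporter gene Slc35d1 by 0.27 (SE 0.07). The other was the glucuronidase gene Gusb, whose enzyme splits glucuronides and supplies no cofactor. It fell by 0.35 (SE 0.055). Ugdh, which makes UDP-glucuronic acid and is named after its values were seen, was at −0.08. For sulfation, 2 of 12 genes fell and 1 rose, with a median of −0.04. Bpnt1, which clears the spent sulfate donor, fell by 0.80 (SE 0.105, adjusted p = 0.00251), the PAPS transporter gene Slc35b3 fell by 0.25 (SE 0.06) and the sulfite oxidase gene Suox rose by 0.27 (SE 0.07). The PAPS synthase genes Papss1 and Papss2, named after their values were seen, did not pass, at −0.10 and −0.22.

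Of 18 other conjugating and glutathione transferase-fold genes 3 fell and 1 rose, and the median was 0.04. Those lower were the Clic genes Clic5 (−1.17, SE 0.10), Clic6 (−0.89, SE 0.075) and Clic1 (−0.22, SE 0.06), which share the fold of glutathione S-transferases and are known as chloride channel proteins. Inmt, an amine methyltransferase gene, rose by 0.63 (SE 0.15, adjusted p = 0.0263). Of 12 genes for efflux of conjugates 4 fell and 2 rose, with a median of −0.05. The apical pump gene Abcb1a fell by 1.91 (SE 0.12), Abcc2 fell by 1.82 (SE 0.15), and Slc51a, a subunit of a basolateral steroid and bile acid transporter, fell by 1.84 (SE 0.09). Abcc5, a broadly expressed pump gene, rose by 0.28 (SE 0.05). The pump gene Abcg2, named after its values were seen, rose by 0.27 (SE 0.06, adjusted p = 0.0255 in limma).

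Of 24 genes for xenobiotic and antioxidant regulators 14 fell and 1 rose, with a median of −0.28. Nr1i2, the xenobiotic receptor PXR, was 6.72, 7.11 and 6.78 in Klf5-deleted pools, against 9.05, 9.06 and 9.17 in control pools. The bile acid receptor gene Nr1h4 fell by 1.19 (SE 0.10, adjusted p = 3.83e-04), and the enterocyte nuclear receptor genes fell too, Hnf4a to a difference of −1.97 (SE 0.08) and Hnf4g to −1.95 (SE 0.12). Nfe2l2, which encodes NRF2, fell by 0.38, and Ahr, the aryl hydrocarbon receptor, by 0.24, both named after their values were seen. Of 20 NRF2 targets outside the members 1 fell and 0 rose, with a median of −0.05. The one that fell was Pgd, of the pentose phosphate pathway (−0.41, SE 0.04, adjusted p = 7.86e-04). This target list is not complete, and Gpx2 and Gsr, which fell, are counted in the glutathione list only. Of 7 AHR targets 0 passed at adjusted p under 0.05 in limma (2 at an unadjusted p under 0.05), and they lay between 0.01 and 0.22. The lists share genes, such as Gclc, Gclm, Nqo1 and Ahrr. With the replicate number as a block, 23 genes of the pathway lists were lower and 3 higher, against 36 and 6 of the 119 measured. With the male share as covariate 2 were lower and 0 higher.

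**Figure D4:**
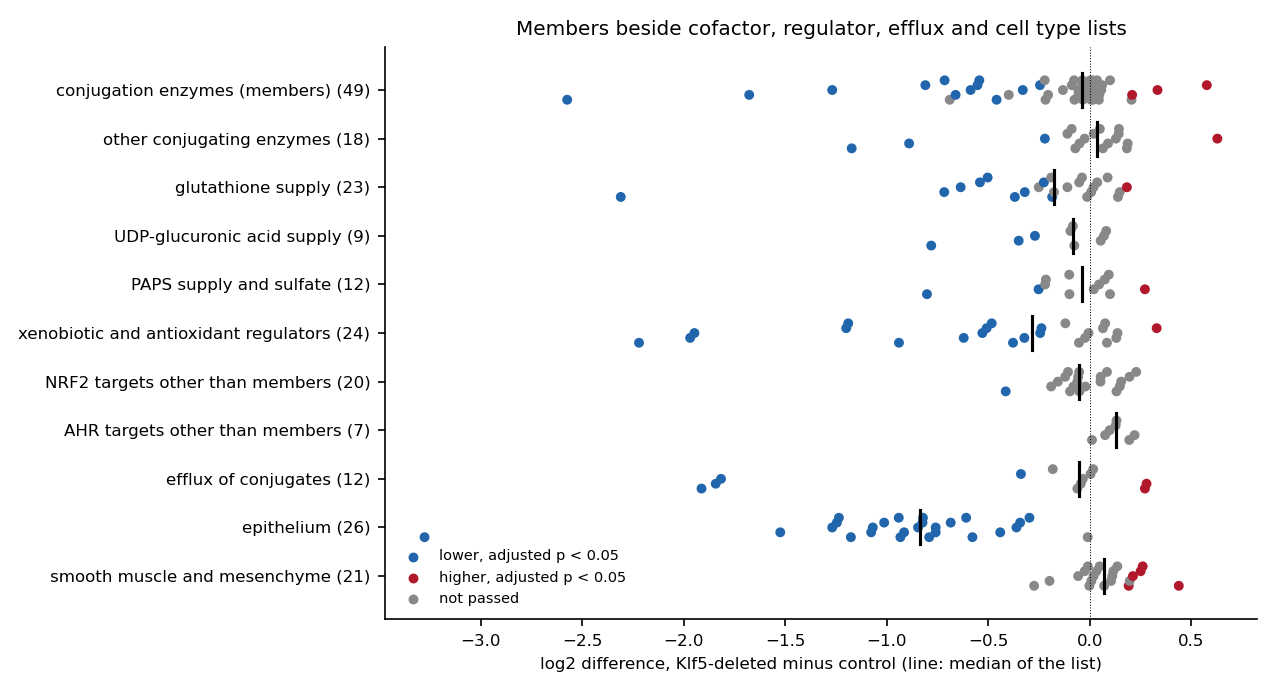
Log2 difference, Klf5-deleted minus control (x axis), for each measured gene of the members, of the pathway lists and of the epithelium and smooth muscle lists (y axis, number of genes in brackets), with a vertical line at each list's median; blue fell, red rose and grey did not pass. Of the lists drawn, epithelium has the lowest median, −0.83, followed by the regulators at −0.28, and the medians of the NRF2 and AHR target lists are −0.05 and 0.13.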

How the data were processed

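The deposited values are log2 signals from Affymetrix arrays. Per the submitters' processing notes, the authors used Affymetrix Expression Console 1.1 for RMA, which as a method removes shifts common to most genes. No source used here gives the array's genome build. Of 35557 rows, 21789 had 1 symbol, 1621 had several and 12147 could not be named here. Gene IDs led to current RefSeq symbols (GRCm38.p6) for 21698 rows. The brightest row per gene gave 19938 genes, with no filter on level, and 1 member, Gstm3, had more than 1 row.

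Groups and replicate numbers came from the sample titles. The test was lmFit and eBayes of limma 3.58.1 (R 4.3.3), with Benjamini-Hochberg adjustment over all genes and a threshold of 0.05. The pipeline was tested on simulated data. Litters are not stated, so each p reflects only how far these pools spread, which may be technical. Named were Klf5, Xist, the Y-linked genes, Cdh1, Epcam, every member past the threshold, the 4 brightest others per family, and up to 4 genes past the threshold per pathway list. Gsta3, Gsto2, Sult1e1 and cell type markers other than Cdh1 and Epcam were named outside this rule, with their values known. Members, lists and alternatives were chosen with earlier results of these data known. The male share averages Eif2s3y, Kdm5d and Uty on the linear scale, from 0% in the lowest array to 100% at the Klf5-deleted mean. Alternatives were each array left out, the replicate block, 2 normalizations, 2 filters on level, a variance trend, the mean of rows, platform symbols, a threshold of 0.1 and the male share. All rows tested on their own was added after the data were seen. Arrays have no read depth, and their number limits the precision.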

Additional observations from a re-analysis of the deposited data

How the results depend on the processing

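Of the 15 calls, Gstm3 and Mgst1 held under all 16 alternatives run on them, of which the male share rests largely on control replicate 1. Another 10 (Gsta4, Gstm1, Gsto1, Gstp1, Gstt3, Mgst2, Mgst3, Sult1b1, Sult1d1 and Ugt2b34) were lost with the male share as covariate and under no other alternative in which they were tested, and Gstm2, Gstt1 and Sult5a1 were lost under more. With the male share, 3 members were lower and 0 higher: 2 Gst genes, 1 Mgst gene, 0 Ugt genes and 0 Sult genes were lower, and 0 Gst and 0 Sult genes were higher. Leaving out 1 array at a time gave 11 to 13 members lower and 1 to 3 higher. By family this was 1 to 2 Gst genes higher, 1 to 2 Ugt genes lower and 0 to 1 higher, and 0 to 1 Sult genes higher. Of the pathway genes 24 to 31 were lower and 2 to 6 higher. With the lowest 50% of genes left out 17 members were tested, of which 1 was higher (1 Gst gene and 0 Sult genes), and 1 Sult gene was lower, as with the lowest 25% left out. When all rows were tested on their own 1 member was higher (1 Gst gene and 0 Sult genes). The number of Gst genes higher was also 1 with the replicate block, quantile normalization, centring on the array median and the variance trend. With the male share, pathway genes lower and higher were 2 and 0. Over all genes, same-numbered arrays did not deviate together (correlations −0.14, −0.27 and −0.03). Such correlations cannot exclude a pairing, for example by litter, and whether the numbers pair samples is not known. The replicate block gave 12 members lower and 2 higher, and 23 pathway genes lower and 3 higher. Members near 0 that did not pass changed sign: Gstm7 (0.01 with the male share, −0.05 to 0.02 leaving out arrays), Gstm4 (−0.02 with centring, −0.32 with the male share, −0.06 to 0.04 leaving out arrays), Sult4a1 (0.12 with the male share, −0.05 to 0.03 leaving out arrays), Sult1a1 (0.26 with the male share, −0.11 to 0.02 leaving out arrays) and Sult1c2 (−0.02 with quantile normalization, −0.01 with centring, −0.06 with the male share, −0.03 to 0.08 leaving out arrays). The causes of these shifts were not tested. Of the 49 members 32 lie at or below the median level of all genes, where low signal limits what can be detected.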
